A study of Mus musculus with 12 samples.

Results

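The genes described here are those whose transcripts were strongly lower after lipopolysaccharide (LPS) in wild-type RAW264.7 cells, an established line of mouse macrophages. For each gene, CPM values (counts scaled by the column total) were taken in the wild-type libraries. The lower of the 2 untreated values plus 1 was divided by the higher of the 2 LPS values plus 1, and a ratio of 2.5 or more was required. Of 54232 genes in the table, 252 passed, and 7 of them (S1pr1, Klf11, Cbx2, Cbx8, Bmf, Angptl4 and Cdc6) were left out by name, so that 245 genes remain. The genes were thus selected on these wild-type values, and the wild-type decreases are a description with no test. The question addressed is which functions these genes have and whether they are lower after LPS in both knockouts as well.

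The series holds 12 poly(A) RNA libraries, 2 for each of 6 groups. The groups were Ing4-/- cells, Socs1-/- cells and wild-type cells of the same line, each given 100 ng/ml LPS for 3 h or left untreated. LPS, from the outer membrane of Gram-negative bacteria, is sensed by macrophages through a Toll-like receptor. Ing4 is known to bind methylated histone H3 within a histone acetyltransferase complex. Socs1 is known to be induced by cytokines and to block JAK kinases in return. The sources used here give neither the way the genes were disrupted nor whether a knockout line is 1 clone. Whether both libraries of a group are from separate cultures is not stated either, so the p-values rest on a spread between samples that may be technical.

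Totals ranged from 17250815 to 24377950 counts per library. The knockout labels could not be checked by the targeted transcripts. Ing4 had 6 to 29 counts per library in Ing4-/- cells, against 2 to 10 in wild type. Socs1 stood at 2.75 and 6.30 CPM in LPS-treated Socs1-/- cells, against 8.10 and 7.75 CPM in LPS-treated wild type. All 10 macrophage markers examined reached 1 CPM, against 1 of 5 neutrophil markers and 0 of 5 each of lymphoid markers and of fibroblast, epithelial and erythroid markers. The first LPS library of the Socs1-/- cells stood apart from the other LPS libraries, as given below, and counts that rest on it are given with and without it.

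When macrophages sense LPS, they are known to turn on inflammatory genes within hours while the transcripts of many other genes decline. Genes known to decline include those for DNA replication, for lineage and quiescence-linked transcription factors, and for receptors of resting cells. A decline over a few hours can come from less transcription or from faster decay of the RNA, and these data measure only the amount of RNA. In bulk samples, fewer cells that carry a transcript and less of it per cell cannot be told apart.

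Of the 245 genes, 240 are annotated as protein coding, and the others are 2 unconfirmed transcribed loci (biotype TEC), 1 antisense gene, 1 transcribed unitary pseudogene and 1 processed transcript. The sources used here do not say whether reads were counted by strand, so the level of the antisense gene is uncertain. Their untreated wild-type means ran from 2.86 to 1080 CPM, with a median of 40.0 CPM. The ratio of the rule ran from 2.51 to 13.2, with a median of 3.02. Just inside the threshold lay Gpd1l at 2.53, Sgpp1 at 2.51 and 2900026A02Rik at 2.51, and just outside it lay Etv5 at 2.499, Sbk1 at 2.49 and Sh3bp5 at 2.48.

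A function was assigned by hand to 184 genes in 10 roles, after their values were seen, and 61 were not assigned. The largest roles were transcription factors and chromatin proteins with 38 genes, and small GTPase regulators, trafficking and cytoskeleton with 37. DNA replication, cell cycle and DNA repair followed with 31 genes, surface receptors and ion channels with 22, lipid and phosphoinositide metabolism with 16, and ubiquitin ligase subunits and adaptors with 12. Smaller roles were solute carriers with 9, glycan synthesis and breakdown with 7, growth and stress restraint with 6, and signalling scaffolds and kinases with 6.

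Promoters are shown for 4 genes of the replication and repair role, because that role held more promoters with an E2F-like motif than any other role. E2F factors are known to control genes of the G1-to-S transition. The sequences are RefSeq promoters on GRCm38.p6, 250 bases before to 50 bases after the annotated start, 5′ to 3′ on the gene's strand, and capitals mark GCGGGAA or its reverse complement TTCCCGC. Gins3 lies on chromosome 8 (95633453 to 95645060), Msh6 on chromosome 17 (87975062 to 87990892), Uhrf1 on chromosome 17 (56303321 to 56323486) and Chek2 on chromosome 5 (110839979 to 110874145), all on the plus strand of GRCm38.
Gins3: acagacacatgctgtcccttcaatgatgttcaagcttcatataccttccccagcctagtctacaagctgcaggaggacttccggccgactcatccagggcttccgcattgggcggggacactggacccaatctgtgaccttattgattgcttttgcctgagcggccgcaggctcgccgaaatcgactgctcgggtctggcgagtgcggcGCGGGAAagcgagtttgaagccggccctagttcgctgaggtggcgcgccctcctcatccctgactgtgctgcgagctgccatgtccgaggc
Msh6: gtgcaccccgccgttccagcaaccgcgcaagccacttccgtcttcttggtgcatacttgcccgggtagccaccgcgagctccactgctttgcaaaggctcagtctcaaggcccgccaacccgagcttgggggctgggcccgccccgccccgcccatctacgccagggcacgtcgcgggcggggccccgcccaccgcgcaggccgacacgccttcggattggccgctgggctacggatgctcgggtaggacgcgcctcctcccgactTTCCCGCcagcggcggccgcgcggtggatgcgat
Uhrf1: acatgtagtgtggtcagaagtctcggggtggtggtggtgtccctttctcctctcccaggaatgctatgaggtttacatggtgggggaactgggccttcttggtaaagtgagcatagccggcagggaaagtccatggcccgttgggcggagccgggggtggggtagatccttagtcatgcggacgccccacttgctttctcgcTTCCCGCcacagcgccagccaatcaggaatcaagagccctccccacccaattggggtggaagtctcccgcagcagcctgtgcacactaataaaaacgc
Chek2: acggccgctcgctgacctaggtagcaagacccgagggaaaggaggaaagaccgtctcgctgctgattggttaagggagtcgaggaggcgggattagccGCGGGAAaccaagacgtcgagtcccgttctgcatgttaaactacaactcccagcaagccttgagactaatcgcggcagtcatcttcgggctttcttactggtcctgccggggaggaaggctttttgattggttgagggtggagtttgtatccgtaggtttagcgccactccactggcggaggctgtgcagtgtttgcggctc
The window of Gins3 is chr8:95633309-95633608, that of Msh6 chr17:87974800-87975099, that of Uhrf1 chr17:56303087-56303386 and that of Chek2 chr5:110839733-110840032. Of the 245 genes, 192 had a promoter entry, and GCGGGAA on either strand stood in 23 of them (12.0%), against 8.78% of the promoters of 9323 tested genes. In the replication and repair role it stood in 10 of 28 promoters, and in no other assigned role in more than 3. Among genes with no assigned role it stood in 5 of 45. Replication and repair genes outside the 245 were not counted, so the share in this role has no like background. CACGTG, an E-box, stood in 12.5% of the 192 promoters and in 10.5% of all. GGGCGG, a GC box, stood in 71.9% and 64.2%, GATAAG in 5.21% and 4.61%, and TATAAA in 4.69% and 7.03%. These are matches of letters in a window, with no test, and say nothing of whether a factor binds there.

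The transcripts of the 245 genes were longer than those of other tested genes. Among 239 genes with an annotated coding transcript the median 3′ UTR was 1666 bases, against 938 bases over 11085 tested genes. The median transcript was 3899 bases, against 2923 bases, and the median gene span 31.6 kb, against 23.3 kb. TATTTAT, an AU-rich element core, stood in 27.2% of the 3′ UTRs, against 27.1% over all. ATTTA occurred 0.986 times per 1000 bases of 3′ UTR in the median gene, against 1.21 times over all. These are descriptions with no test.

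In LPS-treated Ing4-/- cells, all 245 genes stood below 50% of their untreated mean in both libraries. Of all tested genes, 20.3% did so in the first library and 16.4% in the second. The 245 take in Ranbp3l, which had 0 counts after LPS and 1 count untreated in these cells. The median gene kept 17.8% of its untreated CPM in the first Ing4-/- LPS library and 23.9% in the second. In LPS-treated Socs1-/- cells the 2 libraries differed: the median gene kept 62.5% in the first and 18.1% in the second. In the second Socs1-/- library all 245 genes were below 50% of untreated, whereas in the first 74 were below 50% and 23 were above 100%. Of all tested genes, 21.7% were below 50% in the second and 10.2% in the first. The share of all tested genes above 100% is not given here. In wild type, whose values chose the genes, the median gene kept 24.8% and 23.2%.

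The median of all tested genes stood at 78.9% and 78.1% of untreated in the Ing4-/- LPS libraries, at 87.9% and 76.0% in those of Socs1-/- cells, and at 81.0% and 78.2% in wild type. On column totals most genes are thus shifted down after LPS. TMM scaling (trimmed mean of M-values) moved the log2 median of all tested genes by about that amount, to 0.00 in Ing4-/- cells against -0.26 on column totals, to 0.00 in Socs1-/- cells against -0.23, and to 0.01 in wild type against -0.25. The log2 changes and tests below are on the TMM scale, and CPM values are on column totals. On the TMM scale the median gene kept 22.3% and 30.3% in Ing4-/- LPS libraries, 71.3% and 23.5% in those of Socs1-/- cells, and 30.3% and 29.7% in wild type. On that scale 245 and 231 of the 245 genes were below 50% in the Ing4-/- LPS libraries, against 12.9% and 8.97% of all tested genes. In the Socs1-/- LPS libraries 58 and 240 were, against 7.42% and 12.8%.

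**Figure D1:**
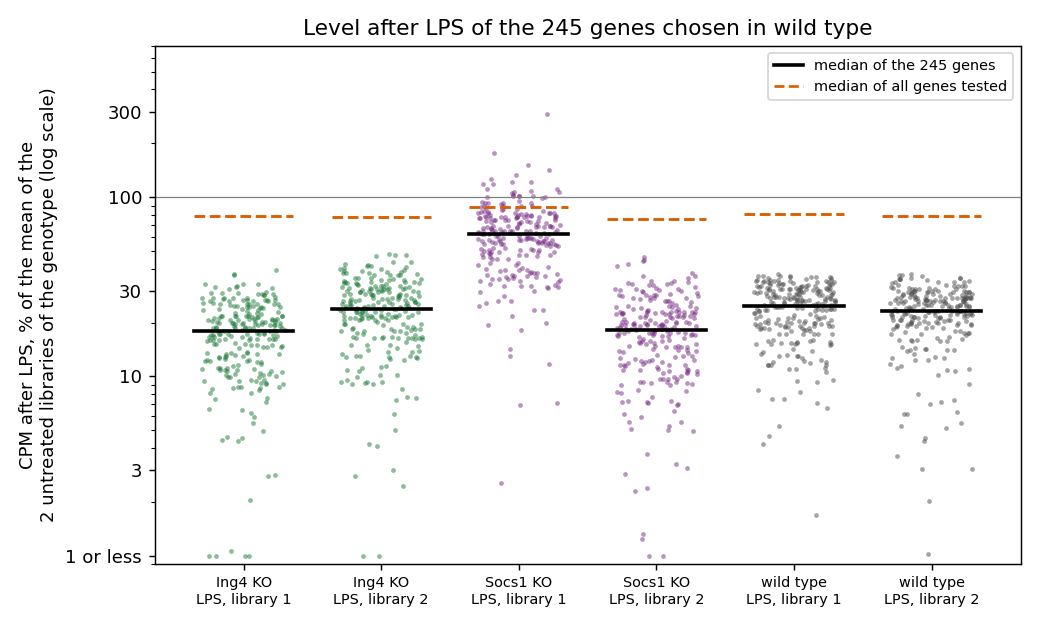
CPM after LPS as a percentage of the mean of the 2 untreated libraries of the same genotype, on a log axis, for each of the 245 genes (dots) in the 6 LPS libraries, with values of 1% or less drawn at 1%. Black lines are the medians of the 245 genes and dashed orange lines the medians of all tested genes, and the first Socs1 KO LPS library alone has a median of 62.5%, the others lying between 17.8% and 24.8%.

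In Ing4-/- cells, 131 of the 245 genes fell after LPS by edgeR's quasi-likelihood test at an adjusted p of 0.05, and 0 were higher. Over all 12771 tested genes, 3.29% were called lower and 4.73% higher. The fitted log2 changes had a median of -1.87, while the median of all tested genes was near 0. Among the 242 genes with more than 3 counts in each Ing4-/- group, all were negative, from -5.55 (Cxcr4) to -1.08. The fit gives no usable size for the other 3 (Rarb, Vash2 and Ranbp3l). Without the first Socs1-/- LPS library, which belongs to another group but enters the shared estimate of spread, 233 of the 245 fell and 9.25% of all tested genes were called lower, and the same numbers came without the second instead. With 1 library of the Ing4-/- cells left out, 13 to 31 of the 245 fell and 0.128% to 0.422% of all tested genes were called. DESeq2 called 227 of the 245 and 4.03% of all genes, and edgeR with no filter on low counts 244 and 5.01%. The shares for DESeq2 and for no filter are over 23947 genes rather than 12771. With the replicate number within a genotype as a block, 205 fell and 12% of all tested genes were called. In a fit of the 4 Ing4-/- libraries alone, which holds no library that chose the genes, 221 of 244 tested fell and 6.86% of all genes were called. In the 8 knockout libraries together only 15 fell and 0.216% were called, and without the first Socs1-/- LPS library, an alternative chosen after seeing the data, 217 fell and 6.98% were called. Both LPS libraries lay below both untreated libraries for 244 of the 245 genes on column totals, against 49.1% of all tested genes, and for 243 on the TMM scale, against 28.6%. The exception on column totals was Ranbp3l, which had 0 counts after LPS and 1 count untreated in Ing4-/- cells and so gives no fold.

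In Socs1-/- cells, 20 of the 245 genes fell after LPS with all libraries and 0 were higher, while 0.407% of all tested genes were called lower and 1.57% higher. The log2 changes had a median of -1.04, and 243 were negative. The exceptions were Klf4 at 0.76 and Elmsan1 at 0.27. Without the first LPS library, 213 fell, 6.73% of all tested genes were called lower, all 245 were negative and the median was -2.08. That leaves 1 library in the Socs1-/- LPS group, whose spread is taken from the other groups. Without the second LPS library instead, 13 fell, 1 was higher, the median was -0.489 and 0.391% of all tested genes were called lower. Without the second untreated library, 4 fell and 0.0528% of all tested genes were called. With the replicate block, 40 fell and 1.63% of all tested genes were called. DESeq2 called 70 of the 245 and 0.969% of all genes, and edgeR with no filter 177 and 1.95%, both shares being over 23947 genes. A fit of the 4 Socs1-/- libraries alone called 0 of the 245 and 0% of all genes by edgeR, with 49 of the 245 and 2.84% of all genes lower at an unadjusted p of 0.05. In the knockout libraries alone, without the wild-type libraries that chose the genes and enter the shared spread, 7 fell and 0.104% of all genes were called. Leaving out the first Socs1-/- LPS library there as well, 181 fell and 4.36% of all genes were called. Both LPS libraries lay below both untreated libraries for 201 of the 245, against 42.6% of all tested genes on column totals, and for 174 against 20% on the TMM scale. In both knockouts at once this held for 201, against 32.4% of all tested genes, and on the TMM scale for 174, against 13.5%.

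The genes that fell in both knockouts numbered 20 with all libraries, against 0.368% of all tested genes. A further 111 fell in Ing4-/- cells alone, 0 in Socs1-/- cells alone and 114 in neither. Without the first Socs1-/- LPS library 212 fell in both, against 5.63% of all tested genes, 21 in Ing4-/- cells alone, 1 in Socs1-/- cells alone and 11 in neither. A call in one knockout and not in the other is not a difference between them. The difference between the 2 responses, Socs1-/- minus Ing4-/-, was called for 0 of the 245 genes by edgeR and for 0 by DESeq2, and for 0% of all tested genes by edgeR. At an unadjusted p of 0.05, 16 of the 245 passed by edgeR and 27 by DESeq2, against 0.987% and 0.522% of the genes each tool tested. The median difference of the log2 changes was 0.869 with all libraries. Without the first Socs1-/- LPS library it was -0.171 with 0 called, and without the second it was 1.38 with 59 called as a smaller decrease in Socs1-/- cells and 0.639% of all tested genes called that way.

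**Figure D2:**
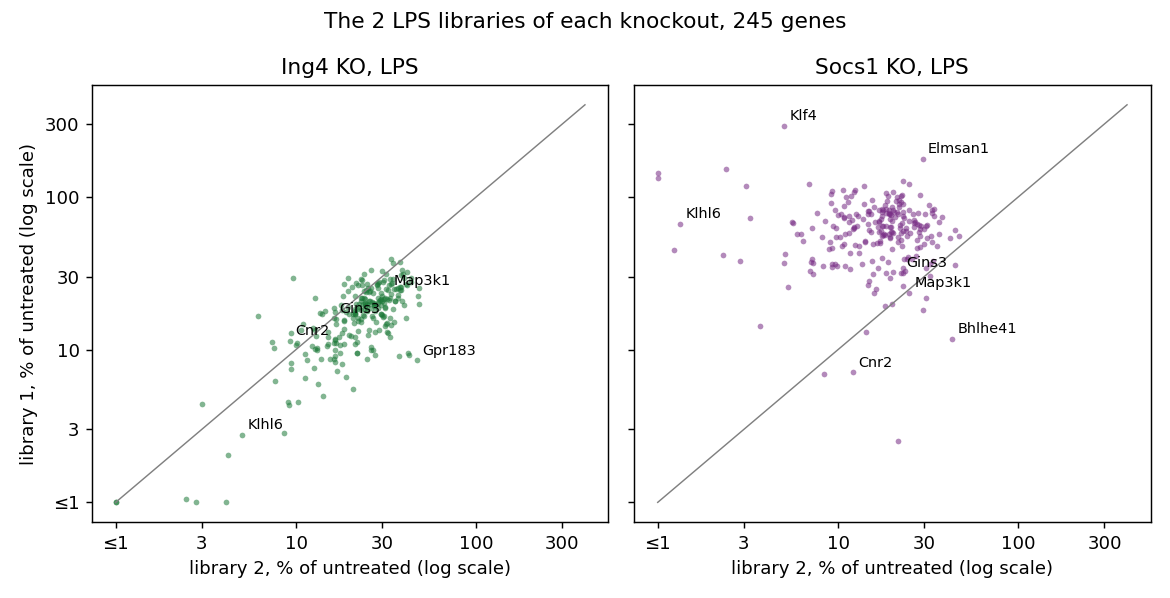
The 245 genes in the 2 LPS libraries of each knockout, as CPM in percent of the untreated mean of that genotype, on log axes, with values of 1% or less drawn at 1% and the grey line marking equal values. In Ing4 KO cells most dots lie somewhat below the line, with 201 of the 245 lower in the first library, and in Socs1 KO cells nearly all lie above it, with 234 of the 245 higher in the first library than in the second.

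In the first Socs1-/- LPS library, 34 of the 245 genes stood within 1.5 times of the second library or below it (on CPM plus 1), and 11 were lower there than in the second. Another 7 stood above both untreated Socs1-/- libraries, with Klf4 and Elmsan1 the farthest above. By role, 9 of the 34 were transcription factors and chromatin proteins, 7 surface receptors or channels, 5 GTPase and trafficking regulators, and 1 of the 31 replication and repair genes. Among the genes described here, the median gene span rose with the level in this library. With the genes split into 4 bins of 59 or 60 by percentage of untreated, low to high, the median gene span was 20.0, 30.5, 36.1 and 42.0 kb. In the second library the bins had medians of 31.6, 33.2, 20.9 and 38.9 kb. In the Ing4-/- LPS libraries they were 31.7, 31.9, 25.4 and 35.8 kb in the first and 35.5, 29.0, 35.9 and 26.3 kb in the second. No such bins were made over all tested genes, and the order of the bins was not tested. The first Socs1-/- LPS library was also the deepest of the 12, with 24377950 counts. What set it apart was not tested.

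Transcription factors and chromatin proteins held 26 genes of 38 that fell in Ing4-/- cells and 8 that fell in Socs1-/- cells, or 35 and 33 without the first Socs1-/- LPS library. The median log2 change was -1.83 in Ing4-/- cells and -1.16 in Socs1-/- cells, or -1.94 in Socs1-/- cells without that library. Lyl1, a basic helix-loop-helix factor of blood cells, stood at 7.60 and 5.56 CPM in LPS-treated Ing4-/- cells, against 97.9 and 49.5 CPM untreated. It stood at 27.3 and 5.90 CPM in LPS-treated Socs1-/- cells, against 66.2 and 102 CPM untreated. The groups did not overlap in either knockout, and Lyl1 fell in Ing4-/- cells (log2 -3.15, SE 0.608, edgeR adjusted p = 0.0244). Foxo3, a forkhead factor of quiescence and stress resistance (chromosome 10, 42181841 to 42276755), stood at 13.9 and 14.8 CPM in LPS-treated Ing4-/- cells, against 55.4 and 49.7 CPM untreated. In Socs1-/- cells Foxo3 stood at 41.4 and 16.2 CPM after LPS, against 52.7 and 68.1 CPM untreated. It fell in Ing4-/- cells (log2 -1.54, SE 0.326, edgeR adjusted p = 0.0289), and in Socs1-/- cells its adjusted p by edgeR was 0.245 with all libraries and 0.00273 without the first LPS library.

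The zinc finger genes Patz1 and Zfp41, and Tsc22d3 (also known as GILZ, a glucocorticoid-induced leucine zipper protein), fell in both knockouts with all libraries. Patz1, a BTB and zinc finger repressor, stood at 19.7 and 20.9 CPM in LPS-treated Ing4-/- cells, against 91.4 and 72.8 CPM untreated, and at 24.0 and 17.2 CPM in LPS-treated Socs1-/- cells, against 73.8 and 76.4 CPM untreated. Its log2 change was -1.69 in Ing4-/- cells (edgeR adjusted p = 0.0025) and -1.60 in Socs1-/- cells (edgeR adjusted p = 0.00434). In these 3 genes the first Socs1-/- LPS library lay close to the second. For Tsc22d3 they held 2.34 and 2.18 CPM, against 7.41 and 16.7 CPM untreated, and for Zfp41 7.42 and 5.36 CPM, against 23.7 and 21.7 CPM untreated.

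Klf4, a zinc finger factor of monocyte differentiation (chromosome 4, 55527143 to 55532466), behaved differently in the 2 Socs1-/- LPS libraries. It stood at 37.5 and 0.645 CPM in LPS-treated Socs1-/- cells, against 16.2 and 9.45 CPM untreated. In Ing4-/- cells it stood at 2.06 and 2.90 CPM after LPS, against 21.9 and 10.4 CPM untreated. The first Socs1-/- LPS library was thus above, and the second below, all untreated libraries of that genotype. Elmsan1, a component of histone deacetylase complexes, stood at 150 and 24.9 CPM in LPS-treated Socs1-/- cells, against 88.3 and 81.0 CPM untreated. Bhlhe41, a basic helix-loop-helix repressor, was the other way round, at 10.8 and 39.1 CPM in LPS-treated Socs1-/- cells, against 40.4 and 143 CPM untreated.

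Rarb, a retinoic acid receptor, had 0 counts in both Ing4-/- LPS libraries and 53 counts in the 2 untreated ones, which is at least 19.4-fold lower when the LPS group is set at 3 counts. Vash2, named after its values were seen, had 3 counts over the Ing4-/- LPS group and 160 over the untreated group. Rarb did not pass the test in either knockout (edgeR adjusted p = 0.246 in Ing4-/- and 0.974 in Socs1-/- cells).

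In DNA replication, cell cycle and DNA repair, 15 of 31 genes fell in Ing4-/- cells and 2 in Socs1-/- cells. Without the first Socs1-/- LPS library, 31 fell in Ing4-/- cells and 30 in Socs1-/- cells. In that library the median gene of the role kept 70.6% of its untreated level, against 21.2% in the second. E2f2, an activating E2F factor (chromosome 4, 136172394 to 136196057), stood at 4.79 and 6.00 CPM in LPS-treated Ing4-/- cells, against 70.3 and 57.9 CPM untreated. The LPS-treated Socs1-/- libraries held 21.7 and 2.93 CPM of E2f2, against 61.5 and 55.8 CPM untreated, and those of wild type held 6.19 and 5.80 CPM, against 56.9 and 50.5 CPM untreated. E2f2 fell in Ing4-/- cells (log2 -3.24, SE 0.677, edgeR adjusted p = 0.0302), and in Socs1-/- cells its adjusted p by edgeR was 0.167, or 6.14e-05 without the first LPS library.

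Gins3, a subunit of the GINS complex of the replicative helicase, fell in both knockouts. It stood at 12.9 and 13.1 CPM in LPS-treated Ing4-/- cells, against 77.0 and 83.9 CPM untreated. It stood at 19.0 and 13.3 CPM in LPS-treated Socs1-/- cells, against 62.5 and 56.3 CPM untreated, and in wild type at 13.5 and 14.2 CPM, against 68.7 and 60.3 CPM. In each knockout both LPS libraries were below both untreated libraries, an order that the rule had fixed in wild type. The 2 Socs1-/- LPS libraries lay near each other. The log2 change was -2.30 in Ing4-/- cells (SE 0.174, edgeR adjusted p = 0.000364) and -1.61 in Socs1-/- cells (SE 0.170, edgeR adjusted p = 0.00236).

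Msh6, a protein of DNA mismatch recognition, lay close to untreated in the first Socs1-/- LPS library. Msh6 stood at 163 and 36.5 CPM in LPS-treated Socs1-/- cells, against 208 and 141 CPM untreated, and at 46.6 and 37.6 CPM in LPS-treated Ing4-/- cells, against 184 and 182 CPM untreated. In Ing4-/- cells the adjusted p by edgeR was 0.069 for Msh6, or 0.019 with the replicate block. Brca1, of homologous recombination, and Chek2, a checkpoint kinase, fell in Ing4-/- cells (edgeR adjusted p = 0.0274 and 0.0324). Uhrf1, which recruits DNA methyltransferase to replicated DNA, stood at 61.6 and 78.4 CPM in LPS-treated Ing4-/- cells, against 264 and 233 CPM untreated, and at 252 and 55.7 CPM in LPS-treated Socs1-/- cells, against 281 and 216 CPM untreated.

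**Figure D3:**
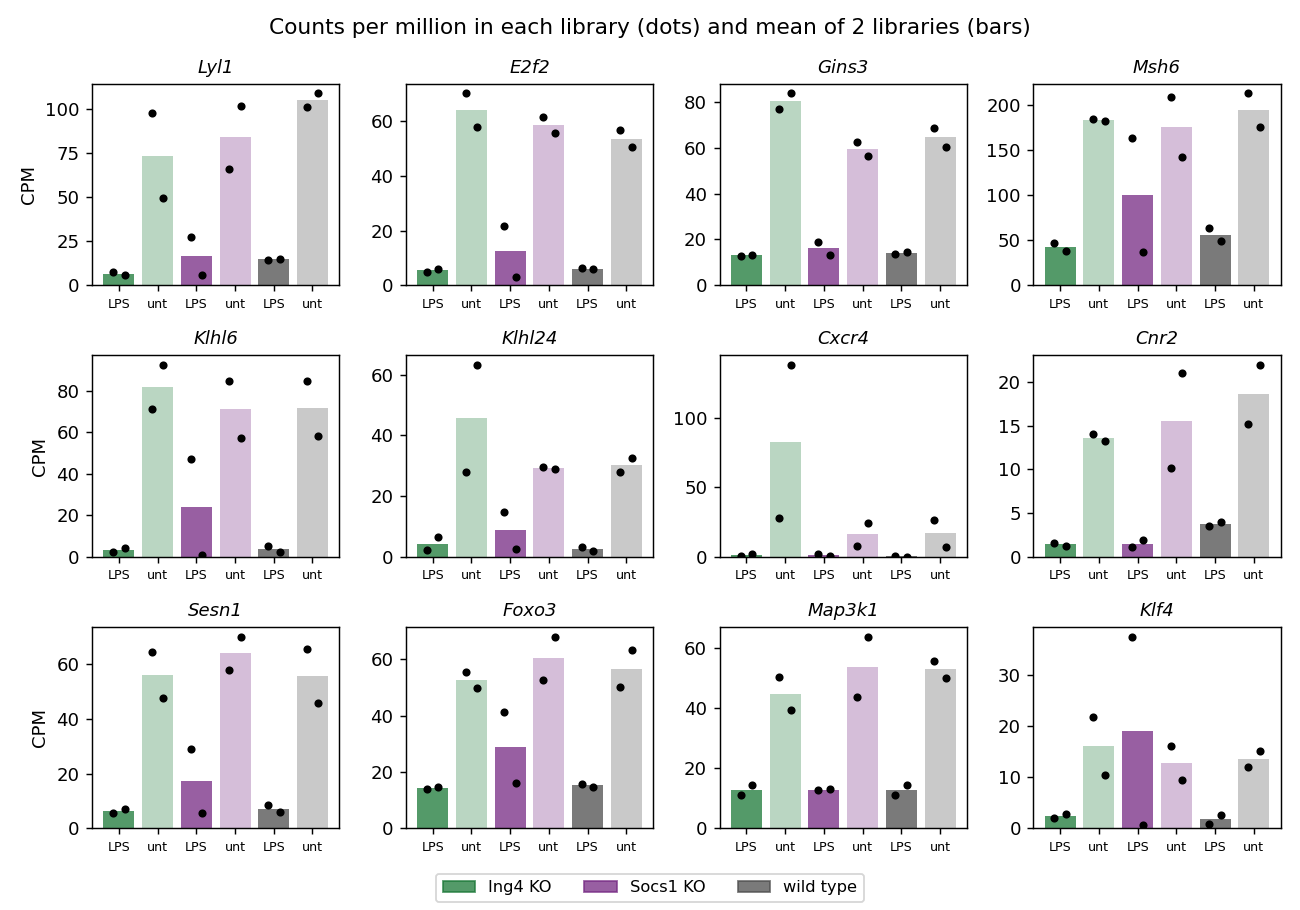
CPM of 12 of the genes in every library (dots), with bars for the mean of the 2 libraries of a group, starting at 0, LPS left of untreated (unt) within Ing4 KO, Socs1 KO and wild type. Gins3, Cnr2 and Map3k1 are low in both Socs1 KO LPS libraries, whereas the 2 dots of that group lie apart for Msh6 (163 and 36.5 CPM) and Klf4 (37.5 and 0.645 CPM).

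Among surface receptors and ion channels, 13 of 22 genes fell in Ing4-/- cells and 1, Cnr2, in Socs1-/- cells, or 18 and 15 without the first Socs1-/- LPS library. Cnr2, the cannabinoid receptor of immune cells (chromosome 4, 135895394 to 135920207), stood at 1.55 and 1.26 CPM in LPS-treated Ing4-/- cells, against 14.03 and 13.2 CPM untreated. In Socs1-/- cells Cnr2 stood at 1.11 and 1.89 CPM after LPS, against 10.2 and 21.0 CPM untreated, and in wild type at 3.55 and 3.94 CPM, against 15.2 and 22.0 CPM. Its log2 change was -2.94 in Ing4-/- cells (SE 0.428, edgeR adjusted p = 0.00772) and -3.07 in Socs1-/- cells (SE 0.430, edgeR adjusted p = 0.00789), and the difference between the responses was -0.13 (SE 0.577, edgeR adjusted p = 1.00).

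Cxcr4, the receptor of the chemokine Cxcl12 (chromosome 1, 128588199 to 128592293), stood at 0.546 and 2.32 CPM in LPS-treated Ing4-/- cells, against 27.8 and 138 CPM untreated. The LPS-treated Socs1-/- libraries held 2.30 and 0.595 CPM of Cxcr4, against 7.99 and 24.3 CPM untreated, and those of wild type held 0.288 and 0.173 CPM, against 26.8 and 7.17 CPM untreated. The untreated libraries of a genotype thus differed several-fold between themselves. Cxcr4 fell in Ing4-/- cells (log2 -5.55, SE 1.21, edgeR adjusted p = 0.0335), and in Socs1-/- cells its adjusted p by edgeR was 0.201, or 0.123 without the first LPS library. Gpr183, a receptor for oxysterols that guides immune cells, stood at 11.0 and 60.6 CPM in LPS-treated Ing4-/- cells, against 117 and 141 CPM untreated, and passed the test in neither knockout. Sirpa, the receptor for the "do not eat me" signal Cd47, was the most abundant of the receptors named, at 235 and 322 CPM in LPS-treated Ing4-/- cells, against 956 and 1264 CPM untreated, and fell there (log2 -1.67, SE 0.252, edgeR adjusted p = 0.00906). Sirpa stood at 634 and 465 CPM in LPS-treated Socs1-/- cells, against 886 and 1213 CPM untreated (edgeR adjusted p = 0.229).

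Of the ubiquitin ligase subunits and adaptors, 7 of 12 fell in Ing4-/- cells and 0 in Socs1-/- cells, or 12 and 10 without the first Socs1-/- LPS library. Several belong to the kelch family, whose members are known as substrate adaptors of Cullin-3 ligases. Klhl6, known for its role in B cells (chromosome 16, 19946496 to 19983037), stood at 2.27 and 4.11 CPM in LPS-treated Ing4-/- cells, against 70.9 and 92.4 CPM untreated, and at 47.2 and 0.943 CPM in LPS-treated Socs1-/- cells, against 84.8 and 57.3 CPM untreated. The groups did not overlap, and its adjusted p by edgeR was 0.0739 in Ing4-/- cells, or 0.039 with the replicate block. Klhl24 stood at 2.27 and 6.43 CPM in LPS-treated Ing4-/- cells, against 28.0 and 63.2 CPM untreated, and fell (log2 -3.07, SE 0.784, edgeR adjusted p = 0.0498). Rnf144b, a ring-between-ring ubiquitin ligase, stood at 3.53 and 3.87 CPM in LPS-treated Socs1-/- cells, against 13.4 and 40.9 CPM untreated (edgeR adjusted p = 0.0546, or 0.027 with the replicate block). It fell in Ing4-/- cells (log2 -3.57, SE 0.576, edgeR adjusted p = 0.0122).

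Among regulators of small GTPases, trafficking and the cytoskeleton, 21 of 37 fell in Ing4-/- cells and 4 in Socs1-/- cells, or 36 and 33 without the first Socs1-/- LPS library. Plekhm1, an adaptor of lysosome fusion, stood at 40.9 and 51.2 CPM in LPS-treated Ing4-/- cells, against 207 and 218 CPM untreated, and at 71.0 and 63.3 CPM in LPS-treated Socs1-/- cells, against 173 and 219 CPM untreated. It fell in both (log2 -1.88 in Ing4-/- and -1.26 in Socs1-/- cells, edgeR adjusted p = 0.00159 and 0.0115 in the same order). Arhgef39, a guanine nucleotide exchange factor, fell in both as well (log2 -1.63 and -1.40, edgeR adjusted p = 0.00408 and 0.00981). Nav1, a neuron navigator protein, was at 184 CPM in the first and 37.2 CPM in the second LPS-treated Socs1-/- library, against 157 and 144 CPM untreated.

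The 6 genes of growth and stress restraint had the lowest median in the second Socs1-/- LPS library, 9.69% of untreated. Sesn1, a sestrin that restrains mTORC1, stood at 5.67 and 7.16 CPM in LPS-treated Ing4-/- cells, against 64.3 and 47.6 CPM untreated, and at 28.8 and 5.70 CPM in LPS-treated Socs1-/- cells, against 57.6 and 69.9 CPM untreated. Sesn1 fell in Ing4-/- cells (log2 -2.79, SE 0.588, edgeR adjusted p = 0.0302), and so did Arrdc3, an arrestin-domain protein that binds ubiquitin ligases (log2 -3.56, SE 0.717, edgeR adjusted p = 0.0256), and Trp53inp1, a stress protein induced by p53 (log2 -3.17, SE 0.778, edgeR adjusted p = 0.0436). In Socs1-/- cells 0 of the 6 fell with all libraries and 6 without the first LPS library.

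Of 6 signalling scaffolds and kinases, 4 fell in Ing4-/- cells and 1, Map3k1, in Socs1-/- cells, or 6 and 6 without the first Socs1-/- LPS library. Map3k1, a kinase upstream of JNK (chromosome 13, 111746428 to 111808993), stood at 11.0 and 14.5 CPM in LPS-treated Ing4-/- cells, against 50.4 and 39.2 CPM untreated. In Socs1-/- cells Map3k1 stood at 12.6 and 13.2 CPM after LPS, against 43.7 and 63.8 CPM untreated. The 2 Socs1-/- LPS libraries were level with each other, and the log2 change was -1.48 in Ing4-/- cells (SE 0.254, edgeR adjusted p = 0.0145) and -1.76 in Socs1-/- cells (SE 0.255, edgeR adjusted p = 0.00959).

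Of 16 genes of lipid and phosphoinositide metabolism, 6 fell in Ing4-/- cells and 0 in Socs1-/- cells, or 15 and 11 without the first Socs1-/- LPS library. Abcg1, a cholesterol exporter, stood at 27.6 and 10.2 CPM in LPS-treated Ing4-/- cells, against 252 and 79.7 CPM untreated, and fell (log2 -2.80, SE 0.667, edgeR adjusted p = 0.0428). The LPS-treated Socs1-/- libraries held 45.0 and 21.7 CPM of it, against 107 and 156 CPM untreated, with an edgeR adjusted p of 0.231, or 0.043 with the replicate block. Scd2, a stearoyl-CoA desaturase and the most abundant of the lipid genes named, stood at 283 and 92.6 CPM in LPS-treated Ing4-/- cells, against 1520 and 414 CPM untreated. Its adjusted p by edgeR was 0.114, or 0.031 with the replicate block. Inpp5d, the phosphatase SHIP1, fell in Ing4-/- cells (log2 -1.77, SE 0.441, edgeR adjusted p = 0.046).

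Of 7 genes of glycan synthesis and breakdown 4 fell in Ing4-/- cells and 0 in Socs1-/- cells, or 7 and 7 without the first Socs1-/- LPS library. St6gal1, a sialyltransferase, stood at 4.37 and 6.87 CPM in LPS-treated Ing4-/- cells, against 57.5 and 42.7 CPM untreated, and fell (log2 -2.83, SE 0.719, edgeR adjusted p = 0.0494), though not with the replicate block (edgeR adjusted p = 0.063). Of 9 solute carriers 2 fell in Ing4-/- cells and 0 in Socs1-/- cells, or 8 and 7 without the first Socs1-/- LPS library. Slco4a1, an organic anion transporter, stood at 168 and 154 CPM in LPS-treated Ing4-/- cells, against 629 and 394 CPM untreated (edgeR adjusted p = 0.054, or 0.040 with the block).

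Of the 61 genes with no assigned role, 30 fell in Ing4-/- cells and 4 in Socs1-/- cells, or 59 and 55 without the first Socs1-/- LPS library. They include the largest ratios of the rule. Fam13c had a ratio of 13.1 and stood at 3.61 and 2.47 CPM in LPS-treated Ing4-/- cells, against 123 and 39.9 CPM untreated, and at 38.9 and 1.74 CPM in LPS-treated Socs1-/- cells, against 42.1 and 64.9 CPM untreated. Fam78a fell in both knockouts, with 4.79 and 5.46 CPM in LPS-treated Ing4-/- cells, against 36.6 and 28.9 CPM untreated, and 9.68 and 6.50 CPM in LPS-treated Socs1-/- cells, against 36.1 and 46.0 CPM untreated (edgeR adjusted p = 0.00103 and 0.00236). The others of the 20 that fell in both knockouts, beside those described above, were Osgin1, Fam217b, Rab3a, Zfp398, Tbc1d2, Tfap4, 1700017B05Rik, Wdr76, Zfp324, Pwwp2b and Prr12. All but Osgin1 and Fam217b of these were named after their values were seen.

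**Figure D4:**
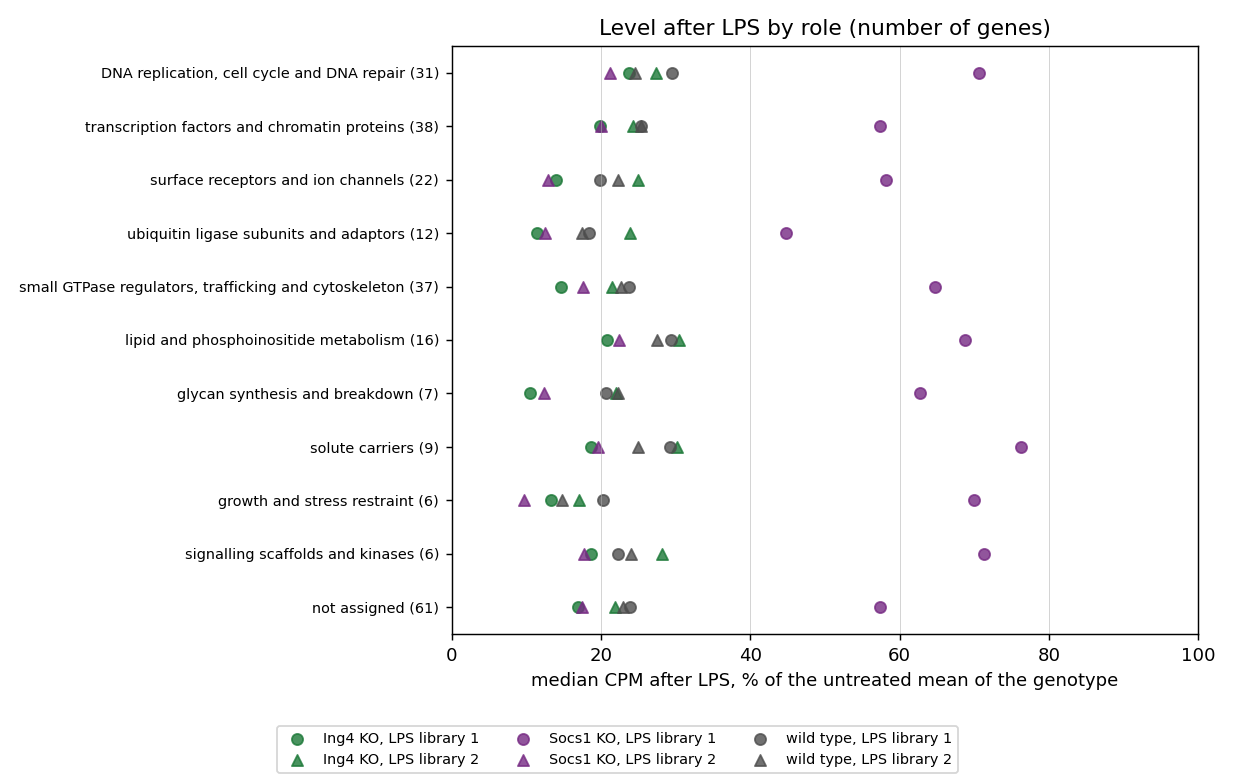
Median CPM after LPS, in percent of the untreated mean of the same genotype, for the genes of each role (number of genes in brackets) in the 6 LPS libraries. In every role the first Socs1 KO LPS library (purple circle, 44.8% to 76.2%) lies to the right of the other 5 libraries, which lie between 9.69% and 30.4%.

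The wider pathways were described through 13 lists of pathways and families, of which 12 hold at least 1 of the 245 genes. In those 12, counts of lower genes include genes chosen for a fall in wild type. Over all tested genes with all libraries, 3.29% were lower and 4.73% higher in Ing4-/- cells. In Socs1-/- cells 0.407% were lower and 1.57% higher. The lists were not tested as sets. Of 37 tested FOXO and quiescence-linked genes, 9 were lower and 1 higher after LPS in Ing4-/- cells, and 2 lower and 1 higher in Socs1-/- cells, with median log2 changes of -1.08 and -0.818. Without the first Socs1-/- LPS library these counts were 19 lower and 2 higher, and 17 lower and 2 higher. The members of the 245 in it were Foxo3, Arrdc3, Klhl24, Sesn1, Tob1, Tsc22d3, Trp53inp1 and Rbl2 (Tob1 named after its values were seen), and because the list holds 8 of them, its median is not independent of the choice of genes. The median of all tested genes was near 0 in both knockouts.

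Of 66 tested cell cycle and replication genes, 3 were lower and 1 higher in Ing4-/- cells, and 1 lower and 0 higher in Socs1-/- cells, with medians of -0.613 and -0.275. Without the library 28 were lower and 1 higher in Ing4-/- cells, and 26 lower and 1 higher in Socs1-/- cells. Of 69 DNA repair genes, 9 were lower and 1 higher in Ing4-/- cells and 0 each way in Socs1-/- cells, or 31 lower and 1 higher and 21 lower and 1 higher without the library. In 38 macrophage lineage and myeloid transcription factors both directions occurred, with 7 lower and 5 higher in Ing4-/- cells and 1 lower and 1 higher in Socs1-/- cells, or 11 lower and 8 higher and 9 lower and 5 higher without the library. Of 41 transcriptional repressors, 11 were lower and 0 higher in Ing4-/- cells, and 2 lower and 1 higher in Socs1-/- cells, or 14 lower and 4 higher and 13 lower and 3 higher without the library. Among the genes chosen for a fall in wild type, 6 are in the cell cycle list and 5 in the DNA repair list. The repressor list was drawn up as C2H2 zinc finger and other transcriptional repressors, though its member Zfp36l2 is neither. The myeloid and repressor lists hold 6 of the chosen genes each. Counts of lower genes and medians in these lists are thus not independent of that choice.

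The other lists held calls in both directions. Of 47 G protein-coupled receptors and regulators, 6 were lower and 2 higher in Ing4-/- cells, and 2 lower and 2 higher in Socs1-/- cells. Without the library they were called lower and higher in similar numbers in both knockouts. The share of all tested genes called higher in that fit is not given here. Of 52 ubiquitin ligases and adaptors, 4 were lower and 2 higher in Ing4-/- cells, and 0 lower and 2 higher in Socs1-/- cells, or 10 lower and 6 higher and 8 each way without the library. Of 59 cytoskeleton and guidance genes, 7 were lower and 4 higher in Ing4-/- cells, and 0 lower and 1 higher in Socs1-/- cells, or 14 lower and 10 higher and 7 lower and 5 higher without it. Of 62 lipid and sterol genes, 1 was lower and 2 higher in Ing4-/- cells, and 0 lower and 1 higher in Socs1-/- cells, or 11 lower and 4 higher and 9 lower and 2 higher without it. Of 67 chromatin and histone modifiers, 2 were lower and 4 higher in Ing4-/- cells, and 1 each way in Socs1-/- cells, or 9 lower and 10 higher and 8 lower and 7 higher without it. Of 46 phagocytic, growth factor and pattern receptors, 2 were lower and 4 higher in Ing4-/- cells, and 1 each way in Socs1-/- cells, or 5 lower and 7 higher and 4 lower and 8 higher without it. Of 35 genes of TGF-beta, BMP, Notch, Wnt and Hippo signalling, 3 were lower and 5 higher in Ing4-/- cells, and 0 lower and 1 higher in Socs1-/- cells, or 9 lower and 7 higher and 6 lower and 5 higher without it. Among 32 apoptosis genes, which hold none of the 245, 2 were lower and 5 higher in Ing4-/- cells, and 1 each way in Socs1-/- cells, or 6 lower and 8 higher and 3 lower and 7 higher without it.

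Without LPS, the median gene of the 245 was at a similar level in the 3 genotypes. The median untreated level was 113% of wild type in Ing4-/- cells and 107% in Socs1-/- cells, a description because wild-type values chose the genes. Below 50% of wild type were 3 genes in Ing4-/- cells and 5 in Socs1-/- cells, and above 200% were 3 and 4. Between untreated Socs1-/- and untreated Ing4-/- cells, edgeR called 0 of the 245, while 0.00783% of all tested genes were called lower and 0.0392% higher. At an unadjusted p of 0.05, 10 of the 245 and 3.06% of all genes passed by edgeR. DESeq2 called 2 of the 245, with no share of all genes given for it. Nrp1, a semaphorin and VEGF co-receptor, stood at 6.43 and 14.6 CPM in untreated Socs1-/- cells, against 41.0 and 37.5 CPM in untreated wild type, and the authors' deposited table of that comparison lists it at a log2 of -1.79 with an adjusted p of 6.7e-05. Plxdc1, a plexin domain protein, is listed there at -1.89 with an adjusted p of 0.0048. After LPS, the authors' deposited table of Socs1-/- over wild-type cells lists 8 of the 245 genes, with Nlrp10, Slc5a3, Srpk2, Ankle1, Tbc1d16 and Angpt2 higher and Nrp1 and Plxdc1 lower. Of these, Plxdc1, Nlrp10, Slc5a3 and Tbc1d16 lie outside the naming rule and were picked with their values known. Each of the 8 had more CPM in the first Socs1-/- LPS library than in the second. Slc5a3 stood at 95.6 and 16.1 CPM there, and Angpt2 at 19.8 and 3.82 CPM. That comparison was not repeated without the first library. The authors' deposited tables of Ing4-/- over wild type list 0 of the 245 genes. How many genes the authors' tables list in all is not given here, so these counts have no background share beside them. Each of these tables sets a knockout against wild-type values that chose the genes, so a direction in it is a description.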

How the data were processed

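Per the labels' protocols, poly(A) RNA of RAW264.7 cells went into stranded libraries, read from 1 end over 75 bases. The deposited table holds read counts per Ensembl gene, whole numbers that the authors had not scaled. The authors' deposited tables of changed genes give shrunken log2 values, the second group named over the first, and adjusted p-values, with the method of adjustment not stated in the sources used here. The submitters' processing notes name FastQC, HISAT, StringTie, HTSeq and DESeq2, without versions, and the human build GRCh38, although all identifiers are mouse. Likewise the treatment protocol names HEK293T, while the samples are labelled RAW264.7. Gene positions are from GENCODE M21 on GRCm38.

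The genes and the lists were chosen with earlier results of these data known. The genes came from CPM by column totals, and all 245 passed edgeR's filterByExpr with the 6 groups given. Tests used edgeR 4.0.16 in R 4.3.3 on counts, with TMM scaling, 1 mean per group over all 12 libraries, robust quasi-likelihood and Benjamini-Hochberg adjustment over 12771 genes. The wild-type libraries, whose values chose the genes, thus enter the shared estimate of spread in these tests. The biological coefficient of variation was 28.9%. An SE is the absolute log2 change divided by the square root of F. No group's 2 libraries matched within counting noise (chi-square per degree of freedom 33.6 to 287). As a pairing check, the difference between the libraries numbered 1 and 2 was correlated across genes. The correlation was 0.447 to 0.601 between treatments of 1 genotype and -0.129 to 0.156 between genotypes, so numbers were taken to pair libraries within a genotype. The block therefore has a term for each genotype and number. The main fit holds no such term, so the calls by role, and p-values given without mention of the block, leave this pairing out. Alternatives were DESeq2 1.42.0, other scalings, filters and thresholds, fits to fewer groups, the block and leaving out each library.

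Named genes are those with the largest rule ratio (15), the highest untreated level (10), the smallest larger p of both knockouts (10), the least negative changes (10 in each knockout), up to 6 of each list, and those next to the threshold. This gave 88 genes, not all of which are named in the text. Other names are marked in the text, and the remaining genes enter only the counts. The scripts were tested on simulated data.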

Additional observations from a re-analysis of the deposited data

How the results depend on the processing

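Of the 245 genes, the 131 that fell in Ing4-/- cells became 227 with DESeq2, 244 with no filter on low counts, 221 in the 4 libraries compared, 15 in the 8 knockout libraries, 217 in those without the first Socs1-/- LPS library, 205 with the replicate block by genotype and 22 at an adjusted p of 0.01. With the plain replicate block it was 128. The 20 in Socs1-/- cells became 70, 177, 0, 7, 181, 40 and 10 under the same settings, and 19 with the plain block. The share of all genes called lower in Ing4-/- and Socs1-/- cells was 4.03% and 0.969% with DESeq2, 5.01% and 1.95% with no filter, 4.07% and 0.454% with the plain block, and 0.258% and 0.11% at 0.01. With DESeq2 and with no filter these shares are over 23947 genes, and in the other 2 settings over 12771. With 1 library left out in turn, the counts ran from 13 to 233 in Ing4-/- cells and from 4 to 213 in Socs1-/- cells. In Ing4-/- cells the lowest counts came without the first Ing4-/- LPS library or the second untreated one (13 each), without the first untreated one (18) and without the second LPS one (31). In Socs1-/- cells the lowest came without the second untreated Socs1-/- library (4). The counts of differences with no filter and with DESeq2 have no share of all genes to be set against. No filter raised the called differences between the responses to 27 and those between untreated knockouts to 11, and DESeq2 gave 2 untreated. Leaving out single libraries gave 0 to 59 and 0 to 1. The replicate block by genotype cannot be had for the untreated comparison. Scaling by RLE or the upper quartile, and a mean of at least 5 CPM, kept each count of calls within 1.5 times.

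Chosen with TMM-scaled sizes the genes would be 121, at a ratio of 2 they would be 532 and at 3 they would be 126, while pseudocounts of 0.5 and 2 CPM gave 286 and 202. Both LPS libraries lay below both untreated ones in both knockouts for 201 genes, for 86 of the 121 on TMM sizes, for 174 with the genes as chosen on TMM sizes, and for 242 without the first Socs1-/- LPS library. Of all tested genes 32.4% did so on column totals and 13.5% on TMM sizes. The 242 rest on a looser condition, with only 1 Socs1-/- LPS library, and have no share of all genes beside them. On TMM sizes 40.7% of all tested genes met its Socs1-/- part, against 20% with both LPS libraries.

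Single genes changed sign in Socs1-/- cells as follows. With the replicate block by genotype, Elmsan1 was at -0.162 and Klf4 at -0.437, and in the knockout libraries without the first LPS one at -1.41 and -3.96. With 1 library left out, log2 changes ran from -1.38 to 1.01 for Elmsan1, -3.93 to 1.73 for Klf4, -1.78 to 0.202 for Uhrf1, -1.74 to 0.524 for Pitpnc1, -5.01 to 2.33 for Rarb, -1.64 to 0.473 for Nav1, -7.11 to 2.48 for Angptl2, -7.25 to 2.76 for Ranbp3l, -1.43 to 0.22 for Crybg3, -2.48 to 0.50 for Fblim1, -1.94 to 0.289 for Erf, -1.88 to 0.0852 for Msh6, -2.84 to 0.341 for Lpin1 and -1.24 to 0.268 for Arhgap24. In Ing4-/- cells, Ranbp3l ran from -3.06 to 0. The cause of these changes was not tested. Rarb and Ranbp3l have few or 0 counts in single libraries, so their fitted values are no measure of size. Whether depth or the number of libraries limits the calls was not tested.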
